A study of Eublepharis macularius with 4 samples.

Results

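Dividing epithelial cells of the adult leopard gecko jaw were chosen from single-cell counts by a rule on 10 genes. A member had at least 200 detected genes, at least 10 UMIs (unique molecular identifiers, 1 per captured transcript) of LOC129339097, at least 5 summed UMIs of MKI67, CDK1, UBE2C, ANLN and NUSAP1, and fewer than 5 summed UMIs of COL1A1, COL1A2, DCN and LUM. This gave 204 members among 2611 cells with at least 10 UMIs of LOC129339097, and among 8531 barcodes with at least 200 detected genes. The other 2407 LOC129339097-positive cells served as the comparison, with no limit on UMIs of COL1A1, COL1A2, DCN and LUM. The tissue was soft tissue of adult Eublepharis macularius jaws with oral mucosa, dental lamina and dental mesenchyme. Animal LG252 was digested with collagenase D and dispase II at 37 °C for 4 to 5 h. Animal LG255 was digested with a bacterial protease at 4 °C for 6 h. Both digests were sorted for live cells by propidium iodide exclusion. Each animal gave 2 libraries, so animal, enzyme, temperature and time cannot be told apart. The labels call the libraries biological replicates without saying what was repeated, so p-values measure the spread between these libraries, which may be technical.

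A reptile of this kind replaces its teeth throughout life, and each new tooth is made from the dental lamina, an epithelial sheet that grows by cell division. A dividing cell first licenses and copies its DNA (S phase), under E2F transcription factors and cyclin E, and then builds a spindle and separates its chromosomes (mitosis), under FOXM1, MYBL2 and B-type cyclins. MKI67 coats mitotic chromosomes, CDK1 is the kinase that drives entry into mitosis and UBE2C is an enzyme of the anaphase-promoting complex. NUSAP1 bundles spindle microtubules and ANLN builds the cleavage furrow, so these proteins act mostly in the later part of the cycle. In oral epithelium, division is usually found in and near the basal layer, and maturing cells above it build a crosslinked envelope and stop dividing.

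The libraries gave 63 and 57 members from LG252 (replicates 1 and 2, 520 and 603 other cells) and 32 and 52 from LG255 (434 and 850 other cells). Their sums held between 332047 and 1188150 UMIs. Members were deeper than the other cells in every library, with median UMI counts of 18807, 12547, 9786 and 12812.5 against 11582.5, 8136, 6795.5 and 8989 (LG252 replicates 1 and 2, then LG255 replicates 1 and 2, the order of every 4 values below). The median mitochondrial share of members was 1.01%, 1.43%, 5.10% and 4.08%. Doublet scores marked 6 members at an assumed rate of 0.8% per 1000 cells, and the automatic threshold of the doublet caller marked 1. At least 3 immune UMIs were found in 4 members (all from LG252 replicate 1), and no barcode was shared between libraries among the members. Any pair of libraries shared 2 to 8 of all barcodes. In UMIs per 1000000 UMIs of the summed cells (CPM), the immune list summed to 0 to 44.6 CPM in members and 2.53 to 33.6 CPM in the other cells. The mesenchyme list, which leaves out the 4 genes of the rule, summed to 9.26, 48.1, 48.2 and 30.9 CPM in members. In the other cells it summed to 15.2, 165, 38.5 and 19.2 CPM, so it was lower in members of LG252 and higher in those of LG255. The limit on those 4 genes applied to members only, which can lower this list in members. The glia list had no UMI in any member. EPCAM, an epithelial adhesion molecule, was at 404, 585, 469.8 and 406 CPM in members and 423, 548, 461 and 472 CPM in the other cells. Its level overlapped between the classes (edgeR quasi-likelihood test, log2 -0.22, SE 0.15, adjusted p = 0.367). The general epithelial list summed to 993, 1239, 2156 and 1036 CPM in members and 1133, 1322, 1167 and 1093 CPM in the other cells. Members thus carried epithelial markers that the rule did not read. In LG255 replicate 1, KRT18 gave 436 of the 716 UMIs of this list in members, from 8 of 32 cells. LOC129339097 itself carries no gene name or function in the annotation used. It lies on chromosome 12, at 38983034 to 39021928 of assembly MPM_Emac_v1.0. Of 2283 barcodes with at least 3 immune UMIs and more immune than mesenchyme UMIs, 42 (1.84%) also had at least 10 UMIs of LOC129339097, and 23.9% had at least 1.

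The 5 division genes chose the members, so their levels describe the choice and were not tested. MKI67 was at 325, 295, 735 and 807 CPM in members and 8.99, 11.3, 16.1 and 10.4 CPM in the other cells. UBE2C was at 322, 471, 120.5 and 77.9 CPM in members, and both LG252 libraries lay above both LG255 libraries. MKI67 had the opposite order, with both LG255 libraries above both LG252 libraries. CDK1 was at 90.9, 100, 99.4 and 132 CPM and NUSAP1 at 100.2, 135, 238 and 244 CPM. At least 5 UMIs of UBE2C alone were found in 31 of 63 and 31 of 57 members of LG252 and in 0 of 32 and 1 of 52 members of LG255. At least 5 UMIs of MKI67 alone were found in 32, 20, 19 and 39 members, in both animals. Over all libraries 190 of the 204 members had a UMI of MKI67, 164 of UBE2C, 147 of NUSAP1, 125 of ANLN and 115 of CDK1, and 56 had all 5. In contrast 2119 of the 2407 other cells (88.0%) had no UMI of the 5 genes. At the edge of the rule, 17 members had exactly 5 such UMIs and 23 other cells had 4, while 128 members had at least 10. A further 6 cells met the division rule but had 5 or more mesenchyme UMIs and were counted among the other cells.

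**Figure D1:**
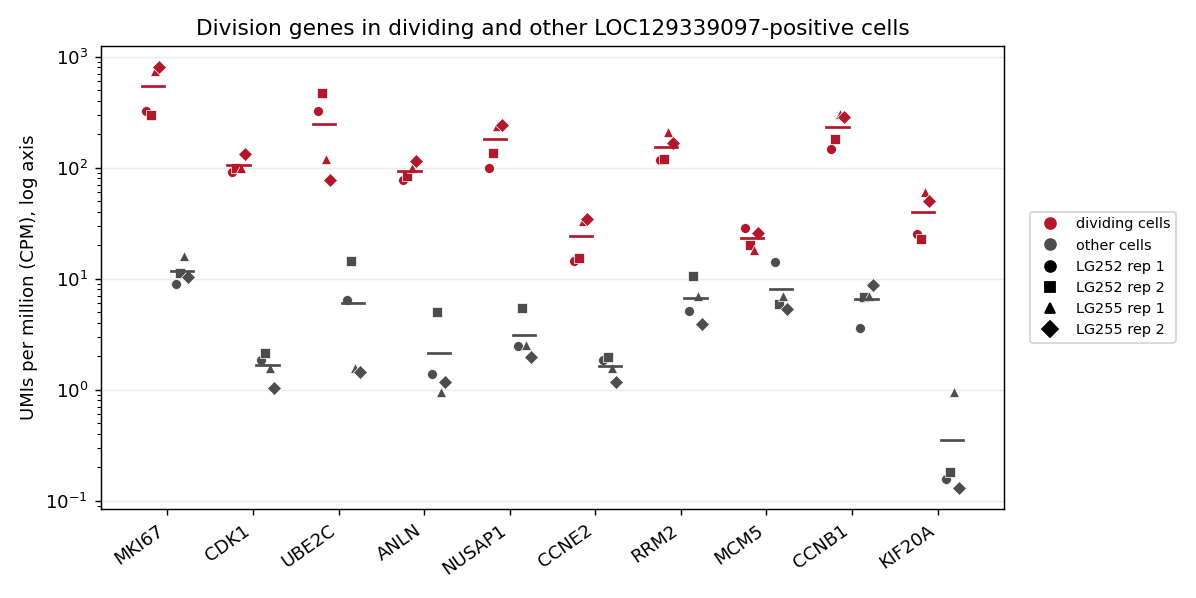
Levels of the 5 genes that chose the members (left) and of 5 other division genes (right), in CPM on a log axis. Each point is the summed cells of 1 library, the bar is the mean of the 4 libraries, and in every gene shown the 4 dividing sums lie above the 4 sums of other cells. For MCM5 the dividing sum of LG255 replicate 1 holds only 6 UMIs, 4 of them from 1 cell.

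Members made up 10.8% (95% exact binomial interval 8.40 to 13.6), 8.64% (6.61 to 11.0), 6.87% (4.74 to 9.56) and 5.76% (4.34 to 7.49) of the LOC129339097-positive cells. The intervals cover counting error only. LG252 averaged 9.72% ± 1.53 (SD, n = 2 libraries) and LG255 averaged 6.32% ± 0.779 (SD, n = 2 libraries), and the gap was 3.41 points. A two-sided exact permutation test gave p = 0.3333, the smallest that 2 against 2 libraries allow. The difference did not hold at equal depth. Cells with fewer than 2000 UMIs were left out of the thinning, so 578 of 583, 650 of 660, 420 of 466 and 871 of 902 cells remained. With these thinned to 2000 UMIs, members were 10 of 578, 10 of 650, 9 of 420 and 11 of 871 cells. The difference was then -0.0686 points. With 2 instead of 5 division UMIs required in thinned cells, the shares were 5.36%, 5.23%, 6.43% and 5.05%, and the difference was -0.443 points.

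**Figure D2:**
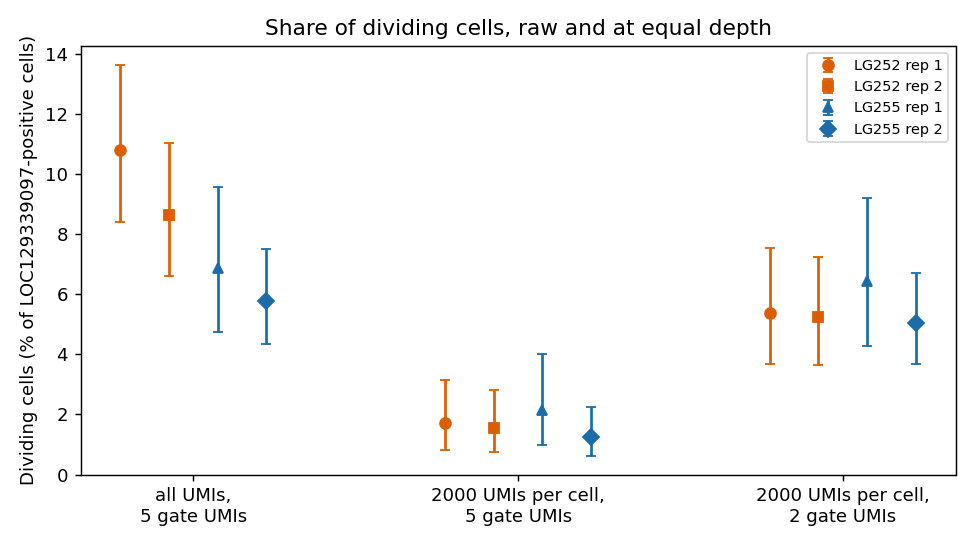
Share of dividing cells among LOC129339097-positive cells, in percent, for each library (point, with its 95% exact binomial interval). LG252 lies above LG255 when all UMIs are used, with 10.8% and 8.64% against 6.87% and 5.76%. The libraries overlap once each cell with at least 2000 UMIs is thinned to 2000, with shallower cells left out.

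The next comparison asked what else sets dividing cells apart from the other LOC129339097-positive cells. UMIs were summed per library and class, and 10016 genes outside the rule were tested with edgeR, with the library as a block. Of these, 1536 (15.3%) were called at an adjusted p of at most 0.05, with 895 higher (8.94%) and 641 lower (6.4%) in dividing cells. Division genes share their course with the genes of the rule, so here and below they are a description: counts past the threshold of the fit are given, single genes have no p, and nothing is drawn from them. The 10 lists of division genes held 170 genes of the files outside the rule, of which 162 had enough UMIs for the fit. In 142 of these the level was past the threshold upwards and in 0 downwards, with a median log2 fold change of 2.24 against -0.04 over all genes. Without adjustment 0 had a p below 0.05 downwards. DESeq2 had 132 upwards and 0 downwards, where it called 6.31% of all genes higher and 4.48% lower. With other cells of like depth as the comparison the counts were 137 and 0 of 157, against 7.11% and 5.56% of all genes. With members chosen at equal depth they were 128 and 1 of 154, against 7.28% and 5.84% of all genes.

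Genes of S phase were also higher in members, and they too share their course with the genes of the rule. All 18 fitted genes that license and fire origins were past the threshold upwards (median log2 1.79), as were 26 of 28 for DNA synthesis and nucleotide supply (1.72) and 10 of 11 for repair during S phase (2.35). RRM2, the small subunit of ribonucleotide reductase, was at 118, 119, 208 and 166 CPM in members and 5.12, 10.6, 6.95 and 3.92 CPM in the others, a log2 difference of 4.34. TYMS, which makes thymidylate, was at 95.9, 94.9, 102 and 133 CPM against 7.6, 5.75, 6.95 and 3.78 CPM (log2 4.00). The replicative helicase subunit MCM5 differed less, at 28.6, 20.3, 18.1 and 26 CPM against 14.1, 5.93, 6.95 and 5.35 CPM (log2 1.39). The lowest member library was above the highest other library. That member library, LG255 replicate 1, had only 6 MCM5 UMIs in 3 of 32 cells, and 1 cell held 4 of them, so the lack of overlap rests on this cell. Among repair genes, BRCA2, which acts in recombination, was at 39.6, 39.2, 166 and 122 CPM against 14.1, 10.4, 19.3 and 17.4 CPM (log2 2.17), higher in members of each library. CHEK1, the kinase that answers stalled forks, was not called (log2 1.20).

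Genes of mitosis differed most. The proteins of the rule act mostly in the later part of the cycle, so this order describes the choice of members. All 30 spindle and kinetochore genes (median log2 4.49) and all 9 cytokinesis genes (4.48) were past the threshold, with 11 of 13 condensin, cohesin and separation genes (3.60). KIF20A, a kinesin of the central spindle, had the greatest log2 difference among genes named by rule (6.74), at 25.2, 22.8, 60.2 and 50.3 CPM in members and 0.155, 0.18, 0.947 and 0.131 CPM in the others. BUB1B, a checkpoint protein at kinetochores, was at 32, 31.6, 66.3 and 68.2 CPM against 0.31, 0.719, 0.947 and 0.783 CPM. TPX2, which activates AURKA on the spindle, was at 33.7, 34.2, 96.4 and 86 CPM against 1.24, 1.98, 0 and 0.914 CPM. The others among the 12 genes with the greatest rise had log2 values from 5.37 to 6.56. They were the ubiquitin ligase subunit CCNF, the ubiquitin ligase G2E3, the DNA glycosylase NEIL3 and the kinetochore proteins KNL1, BUB1 and OIP5. With them were the cyclin CCNB3, the spindle protein CKAP2 and the midzone bundler PRC1. TOP2A, which untangles sister chromatids, had a log2 difference of 4.94, and the condensin subunit SMC2 one of 4.87.

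Of 19 fitted cyclins, kinases and phosphatases 13 were past the threshold upwards. CCNB1, the cyclin that partners CDK1, was at 148, 179.7, 307 and 287 CPM against 3.57, 6.83, 6.95 and 8.74 CPM (log2 4.92), and CCNA2, the S and G2 cyclin, at 48.8, 50.6, 99.4 and 69.8 CPM against 0.62, 2.34, 2.21 and 1.31 CPM (log2 5.18). CCNE2, the cyclin of S phase entry, was at 14.3, 15.2, 33.1 and 34.1 CPM against 1.86, 1.98, 1.58 and 1.17 CPM (log2 3.54). The G1 regulators were not among them: CCND1, CCND2, CCND3, CDK4, CDK6 and CCNE1 were not called. CCND1 was at 13.5, 12.7, 54.2 and 27.6 CPM in members and 15.3, 19.4, 44.2 and 25.6 CPM in the others. Of 13 transcription factors of the cycle 8 were past the threshold, among them FOXM1 (log2 4.98), MYBL2 (3.17) and the repressors E2F7 (2.99) and E2F8 (3.13). MYC was at 282, 209, 18.1 and 11.4 CPM against 309.6, 236, 28.1 and 16.2 CPM and was not called. Of 8 fitted genes of the anaphase-promoting complex and its regulators 5 were past the threshold, and of 13 chromatin and tubulin genes 12, including HMGB2 (2.18) and HMGN2 (2.09), which bind DNA and nucleosomes.

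Inhibitors of the cycle were called in both directions. Of 10 fitted CDK inhibitors, pocket proteins and antiproliferative BTG genes, 1 was higher, 3 were lower and 6 were not called (median log2 -0.10), where 8.94% of all genes were higher and 6.4% lower. CDKN2C, an inhibitor of CDK4 and CDK6, was at 12.2, 7.01, 6.95 and 5.48 CPM in the other cells. In members it was at 26.9, 12.7, 57.2 and 107 CPM (log2 2.26). Whether it shares its course with the genes of the rule was not tested, so its rise is a description without a p. The lower genes were the antiproliferative BTG2 (log2 -0.88, SE 0.18, adjusted p = 0.00101) and BTG1 (log2 -0.57, SE 0.19, adjusted p = 0.0442), and the CDK inhibitor CDKN1A (log2 -0.56, SE 0.18, adjusted p = 0.0359), all by edgeR. DESeq2 kept 1 of these 3 calls. BTG1 did not have 1 direction: it was at 492, 394, 202 and 292 CPM in members and 435, 423, 414 and 483 CPM in the others. In cells thinned to equal depth, 15, 8, 1 and 0 members had a CDKN1A UMI (23.81%, 14.04%, 3.125% and 0%). Among the other cells the shares were 18.83%, 22.09%, 4.639% and 3.049%. The share was thus higher in members of LG252 replicate 1 and lower in those of the remaining libraries, and this was not tested. CDKN1C, another CDK inhibitor, was not called (98.5, 87.3, 69.3 and 39 CPM against 103, 102, 50.5 and 41.8 CPM).

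**Figure D3:**
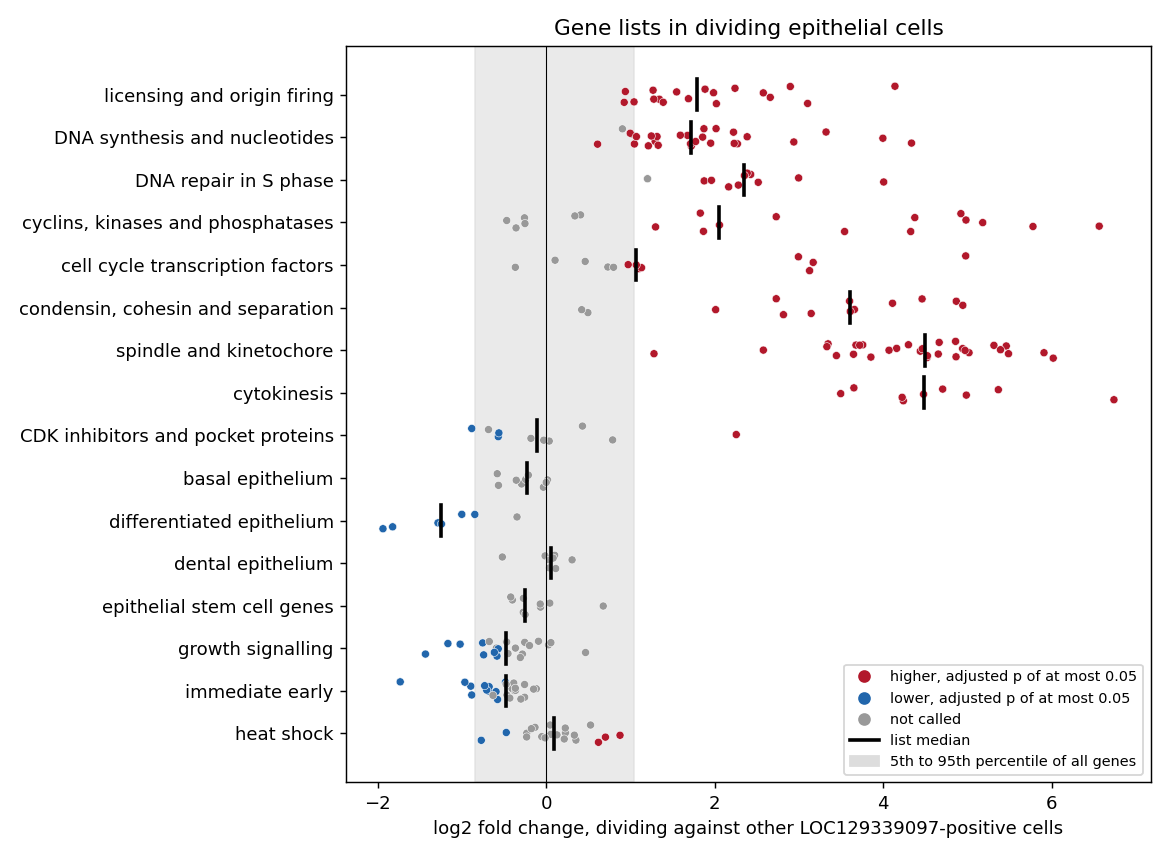
Log2 fold changes of dividing against other LOC129339097-positive cells for genes in 16 lists (points), with the list median (black bar) and the 5th to 95th percentile of all tested genes (grey). Spindle, kinetochore and cytokinesis genes lie farthest right (medians 4.49 and 4.48), differentiated epithelial genes farthest left (median -1.24), and the medians of basal, dental and stem cell lists lie between -0.25 and 0.06.

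Genes of differentiated epithelium were lower in dividing cells. Of 7 fitted genes of the list 6 fell and 0 rose (median log2 -1.24), where 6.4% of all genes fell. TGM1, which crosslinks the cell envelope, was at 31.1, 38, 12 and 50.3 CPM in members and 66.8, 114, 45.8 and 60.2 CPM in the others, lower in members of each library (edgeR, log2 -1.24, SE 0.20, adjusted p = 6.76e-05). The envelope plakin EVPL was at 62.3, 45.6, 48.2 and 40.6 CPM against 91.6, 92.9, 85.6 and 82.9 CPM, and the groups did not overlap (log2 -1.001, SE 0.17, adjusted p = 0.000142, edgeR). Its partner PPL was at 41.2, 20.3, 15.1 and 26 CPM against 55.2, 66, 54 and 64.9 CPM, again without overlap (log2 -1.28, SE 0.22, adjusted p = 0.000138, edgeR). GRHL1 and GRHL3, transcription factors of barrier formation, fell by 1.94 and 0.85 on the log2 scale. The mucin MUC22 fell in LG252, from 34.3 and 109 CPM to 19.4 and 16.5 CPM, and in LG255 members it had no UMI, with 0 and 1.04 CPM in the other cells. TGM4 was not called, and all 25 of its UMIs in LG255 replicate 2 came from 1 member. The list kept 6 calls against other cells of like depth, and 4 of 6 fitted genes were lower with members chosen at equal depth. After thinning to 2000 UMIs, dividing cells were 161 of 1711 cells without a UMI of the list (9.41%), 32 of 503 cells with 1 UMI (6.36%) and 10 of 305 cells with 2 or more (3.28%). Median depths before thinning were 9171, 9706 and 9608 UMIs in these classes. In LG255 replicate 1 they fell, at 8779, 6155 and 5160 UMIs. In each other library the class with 2 or more UMIs was deeper than that with none. The part of depth was not tested. In each library the share was lower with 2 or more UMIs than with none. With none against 2 or more, it was 13.2% against 3.08% and 10.0% against 2.75% in LG252. In LG255 it was 8.33% against 4.55% and 7.04% against 3.45%. The classes with 2 or more UMIs held only 2, 3, 2 and 3 dividing cells. The exact binomial intervals of the compared classes overlapped in every library.

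Genes of the basal layer were rarely called. By edgeR 0 of 10 were called in either direction, 1 had an unadjusted p below 0.05 (lower) and DESeq2 called 0, while edgeR with DESeq2 size factors called 1 lower. COL17A1, the collagen of hemidesmosomes, was at 485, 697, 178 and 114 CPM in members and 574, 695, 194 and 123 CPM in the others (edgeR, log2 -0.29, SE 0.15, adjusted p = 0.215). The plakin DST was at 178, 192, 509 and 364 CPM against 186, 176, 424 and 263 CPM. Of 9 fitted genes known from epithelial stem cells, 0 were called by edgeR or DESeq2, and 0 had an unadjusted p below 0.05. SOX2, a factor of dental lamina progenitors, was at 268, 199, 96.4 and 110.4 CPM in members and 235, 169, 123 and 95.7 CPM in the others (edgeR, log2 -0.07, SE 0.16, adjusted p = 0.833). LGR4, a receptor for R-spondins, was at 149.8, 142, 151 and 216 CPM against 193, 162, 181 and 161 CPM (edgeR, log2 -0.27, SE 0.16, adjusted p = 0.275). Of 8 fitted dental epithelial genes 0 were called by either tool and 0 had an unadjusted p below 0.05. TBX1, a factor of the dental epithelium, was at 76.6, 79.7, 45.2 and 30.8 CPM against 63.9, 60.4, 38.2 and 29.6 CPM (edgeR, log2 0.11, SE 0.17, adjusted p = 0.721). A difference that misses the threshold does not show equal levels at this number of libraries. The ameloblast and chemosensory lists had too few UMIs for the fit, with at most 3 UMIs a library in members.

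The 12 genes named by rule for the greatest fall were of several kinds. AQP5, a water channel, was at 8.42, 0, 3.01 and 1.62 CPM in members and 33.3, 47.6, 8.53 and 20.2 CPM in the others, lower in each library (edgeR, log2 -3.08, SE 0.42, adjusted p = 6.86e-06). RHCG, an ammonium transporter, was at 4.21, 7.59, 6.02 and 8.12 CPM against 29.9, 38.5, 31.9 and 55.1 CPM, without overlap (log2 -2.77, SE 0.27, adjusted p = 3.34e-08, edgeR). C18H15orf48, known in mammals as a mitochondrial protein, was at 112, 115, 27.1 and 187 CPM against 305, 441, 344 and 906 CPM (log2 -2.30, SE 0.22, adjusted p = 2.61e-08, edgeR). CAPN9, a calpain of digestive epithelium in mammals (log2 -2.66), the tetraspanin TSPAN1 (-2.36), the membrane protein MALL (-1.88) and the solute carriers SLC5A8 (-1.87) and SLC28A3 (-1.83) were lower in each library. So were RAP1GAP2 (-2.25), which switches off RAP1, the apolipoprotein APOC1 (-2.85), the chemokine CXCL14 (-2.49) and PIGR (-1.96), the receptor that carries antibodies across epithelia. APOC1 and CXCL14 were uneven among the other cells, at 3.88, 48.7, 214 and 86.9 CPM and 2.48, 18.5, 111 and 74.6 CPM. The other cells had no limit on mesenchyme UMIs, and the part of this in these falls was not tested. In the secretory list 2 of 3 fitted genes fell, AGR2 (-3.15) and PIGR. AGR2 was not lower in every library: it was at 5.05, 0, 9.03 and 0 CPM in members and 57.7, 1.8, 3.79 and 14 CPM in the others.

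Ligands and receptors of growth signalling were lower or not called. Of 22 fitted genes 8 fell and 0 rose (median log2 -0.47), where 6.4% of all genes fell. DESeq2 called 2 of 22 lower, against 4.48% of all genes. After thinning 0 of 16 were lower, against 4.75% of all genes. EREG, an EGFR ligand, was at 20.2, 8.86, 0 and 1.62 CPM against 37.4, 28.4, 3.79 and 10.4 CPM (edgeR, log2 -1.43, SE 0.31, adjusted p = 0.00217). CCN1, a target of YAP signalling, was at 20.2, 25.3, 6.02 and 3.25 CPM against 49.9, 50.9, 8.84 and 3.52 CPM (edgeR, log2 -1.17, SE 0.25, adjusted p = 0.00213). The ligand TGFA, the receptors ERBB3 and FGFR3, the Notch ligand JAG1, the coactivator WWTR1 and CCN2 also fell. EGFR itself was at 119.5, 138, 72.3 and 64.9 CPM against 121, 151, 84 and 66.9 CPM and was not called. Of 25 fitted immediate early genes 11 fell and 0 rose (median log2 -0.47), against the same 6.4% of all genes. Their list summed to 10990, 9431, 2241 and 3583 CPM in members and 12510, 10370, 4378 and 4790 CPM in the others. DESeq2 called 9 lower, and after thinning 4 of 22 were lower. Those that fell included the phosphatases DUSP2 (log2 -1.73) and DUSP5 (-0.96) and the stress factor ATF3 (-0.89). Of 20 heat shock genes 3 rose and 2 fell, against 8.94% and 6.4% of all genes. In the differentiated, growth signalling and immediate early lists 0 genes had an unadjusted p below 0.05 upwards, and DESeq2 called 0 higher. HSPD1, the mitochondrial chaperonin, was at 237, 208, 301 and 135 CPM against 169.7, 143, 64.1 and 60.4 CPM (edgeR, log2 0.88, SE 0.19, adjusted p = 0.00245).

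Single members ranged from cells rich in S phase genes to cells rich in mitosis genes. UMIs of 49 S phase genes and of 44 mitosis genes, none of them in the rule, were summed per cell. Per 10000 UMIs of a member, the median S phase sum was 27.9, 22.4, 45.2 and 31.0, and the median mitosis sum was 25.01, 24.95, 55.5 and 52.5. In the other cells the medians over all libraries were 5.33 and 0.922. More S phase than mitosis UMIs were found in 39 of 63, 27 of 57, 16 of 32 and 19 of 52 members. In LG255 the sums ran against each other, with Spearman's rho of -0.53 and -0.54 across cells, whereas rho was 0.18 and -0.11 in LG252. These values describe cells of 1 library each, in which both sums share the cell's depth, and were not tested. The mitosis sum also fell with depth, with rho between UMI count and mitosis sum of -0.59, -0.34, -0.26 and -0.29. For the S phase sum, rho with the UMI count was -0.32, -0.24, 0.14 and -0.06. In LG252 both sums thus fell with depth, and the part of this in the contrast between the animals was not tested. A member needed 5 UMIs of the division genes at any depth, which favours high sums in shallow members, and its part was not tested. A separate count was made of genes used in replication. At least 5 UMIs of MCM2, MCM3, MCM5, MCM6 and TYMS were found in 45 of 204 members (22.1%) and in 54 of 2407 other cells (2.24%), the latter with a median of 15003.5 UMIs per cell against 8867 over all other cells. Depth thus differed with this count, and its part was not tested.

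**Figure D4:**
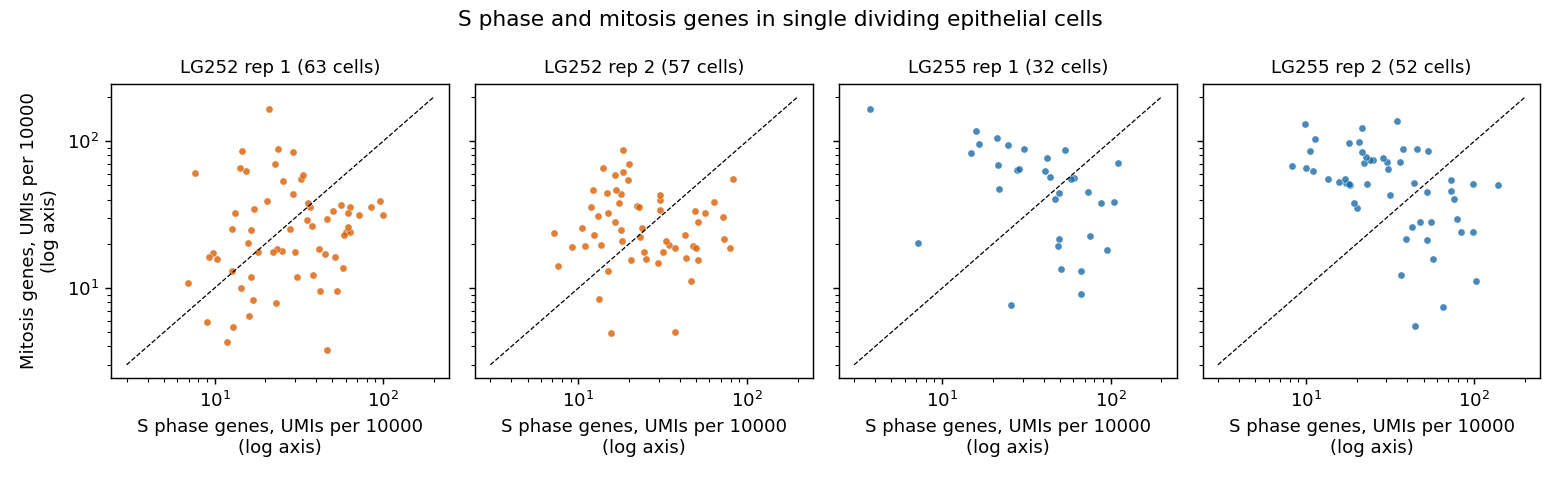
S phase genes against mitosis genes in each of the 204 dividing cells, in UMIs per 10000 UMIs of the cell on log axes, 1 panel per library, with a dashed line where both are equal. In LG255 cells with many S phase UMIs have few mitosis UMIs (rho -0.53 and -0.54), and in LG252 the points form a single cloud (rho 0.18 and -0.11).

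Dividing cells of the 2 animals were then compared with each other. Of 6864 genes tested, 1631 (23.8%) were called by edgeR, with 1049 higher (15.3%) and 582 lower (8.48%) in LG252. Immediate early genes were higher in LG252 for 23 of 24 fitted genes (median log2 2.56) and heat shock genes for 11 of 18, with 1 lower (median 1.35). JUND, a subunit of the AP-1 factor, was at 1477, 1073, 12 and 8.12 CPM (edgeR, log2 7.22, SE 0.42, adjusted p = 8.3e-08). DNAJA4, a co-chaperone, was at 768, 849, 9.03 and 8.12 CPM (log2 6.73, SE 0.38, adjusted p = 7.84e-08, edgeR), and the small heat shock protein HSPB6 at 9856, 8315, 54.2 and 135 CPM (log2 6.70, SE 0.50, adjusted p = 4.63e-07, edgeR). The other cells had the same order, with JUND at 1709.6, 1276, 15.5 and 10.3 CPM and HSPB6 at 8569, 6912, 211 and 264 CPM. The remaining 9 genes named as higher in LG252 had no UMI in LG255 members. Set against 3 UMIs over both LG255 libraries, the filament protein VIM was at least 27.3-fold higher, the carotenoid-cleaving enzyme BCO2 at least 16-fold and TENT5A, an RNA polymerase that extends tails, at least 10.4-fold. For VIM 1 cell held 46.7% of the UMIs of LG252 replicate 1 and 1 cell 66.7% of those of replicate 2, and without them the bound was 11.8-fold. The bounds of P2RY1, PARD6B, IGFBP6, RASD1, RAB44 and SEMA3B ran from 6.39 to 8.63-fold. Animal and dissociation cannot be told apart in any of these.

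The 12 genes named by rule as lower in LG252 included 4 mitochondrial features. MFAP2, a microfibril protein, had 3 UMIs in LG252 and 86 in LG255 members, a ratio of 59.8 (counting interval 19.8 to 296). TRABD2B, which clips WNT proteins, was at 1.68, 6.33, 241 and 153 CPM (edgeR, log2 -5.48, SE 0.42, adjusted p = 5.11e-07). GJA1, a gap junction protein, was at 3.37, 2.53, 66.3 and 125 CPM (log2 -4.79, SE 0.50, adjusted p = 8.69e-06, edgeR). The cadherin CDH11 and the matrix protein MXRA5 had 2 UMIs each in LG252 against 23 and 20 in LG255, and the protease ADAMTS17 was at 2.52, 2.53, 30.1 and 21.1 CPM. In LG255 replicate 1 single cells held 63.6% of the UMIs of GJA1, 55% of TRABD2B, 77.8% of CDH11 and 60% of ADAMTS17. Without the richest cell of each library, GJA1 was at 25.1 and 103 CPM in LG255, TRABD2B at 111 and 118 CPM, CDH11 at 6.33 and 11.6 CPM and ADAMTS17 at 12.2 and 16.5 CPM. Each of these values was still above both full LG252 libraries. The mesenchyme list summed to 9.26, 48.1, 48.2 and 30.9 CPM in the same members, overlapping between animals. Its 1 fitted gene was also lower in LG252 (log2 -1.66), with an unadjusted p below 0.05 by edgeR, but was not called. The part of mesenchyme transcripts in these results was not tested. The tooth factor DLX5 was at 3.37, 3.8, 24.1 and 55.2 CPM (log2 -3.35, SE 0.57, adjusted p = 0.00071, edgeR). The mitochondrial features BW219_gt21, BW219_gp08, BW219_gp11 and BW219_gp01 were lower by log2 -3.16 to -5.03, beside the lower mitochondrial share of LG252 cells. KRT18, a keratin of simple epithelia, was at 41.2, 83.5, 1313 and 279 CPM. However, 1 cell held 89% of its UMIs in LG255 replicate 2 and 1 cell 41% in replicate 1. Dropping the richest cell took KRT18 down to 31.3 CPM in LG255 replicate 2, which is below both full LG252 libraries. LG255 replicate 1 stayed above them, with 846 CPM left. Unlike the genes above, KRT18 thus did not keep the animals apart in this check.

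Division genes were lower in LG252 members, as a share of all UMIs. This is a description, since a fixed count of 5 UMIs of genes that share their course chose the members. UBE2C alone reached 5 UMIs in 31 of 63 and 31 of 57 LG252 members and 0 of 32 and 1 of 52 LG255 members. The part of the rule in this difference was not tested. Of 144 fitted genes of the 10 lists 47 were lower and 3 higher (median log2 -0.65, against -0.01 over all genes), where 8.48% of all genes were lower. CENPF, a kinetochore protein, was at 101, 127, 401 and 516 CPM (log2 -1.83). FOXM1 was at 20.2, 21.5, 72.3 and 66.6 CPM (log2 -1.53) and CCNB3 at 40.4, 50.6, 148 and 122 CPM (log2 -1.36). CENPF was named after its values were seen. The count depended on how members were chosen and tested. Median member depths, given above, overlapped between the animals, and their part was not tested. With members chosen by 2 division UMIs at 2000 UMIs per cell, 14 of 128 genes were lower and 3 higher (median -0.53), against 4.14% and 11.1% of all genes. DESeq2 called 5 lower and 2 higher, against 1.35% and 6.66% of all genes. Leaving out LG252 replicate 1, LG252 replicate 2, LG255 replicate 1 or LG255 replicate 2 gave median log2 values of -0.73, -0.59, -0.65 and -0.58. Over all genes the medians of these fits were -0.03, -0.02, 0.04 and 0.05. Each of these fits left 1 animal with 1 library. Inhibitors of the cycle had the opposite order, with 6 of 8 higher in LG252 and 1 lower by edgeR (2 and 1 by DESeq2). By edgeR 15.3% of all genes were higher. The list of inhibitors summed to 1252, 1086, 518 and 760 CPM in members. In the other cells it summed to 1382, 1285, 813 and 987 CPM, so the order of the animals was not particular to members. CDKN1A was at 106, 69.6, 18.1 and 16.2 CPM in members (log2 2.57, SE 0.37, adjusted p = 0.000149, edgeR). CDKN2C, at 26.9, 12.7, 57.2 and 107 CPM, was lower in LG252 like the division genes (log2 -1.86), again as a description.

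Whether the difference between dividing and other cells itself differed between the animals was tested as an interaction. Of 11222 genes 52 (0.463%) were called by edgeR, with 19 greater (0.169%) and 33 smaller (0.294%) in LG252. Of 166 fitted division genes 11 were smaller and 0 greater in LG252, where 0.294% of all genes were smaller (median log2 -0.83, against 0.10 over all genes). Without adjustment 2 had a p below 0.05 in the greater direction. These genes share their course with the genes of the rule, so their counts are a description. DESeq2 had 8 smaller and 0 greater, where 0.151% of all genes were smaller. With DESeq2 size factors in edgeR the median of all genes moved to -0.01, and the calls were 17 greater and 48 smaller. CKS2, a subunit that binds CDK1, was at 548, 637, 626 and 916 CPM in members and 233, 218, 28.4 and 33.9 CPM in the others. The members of the animals overlapped, and the other cells of LG252 lay well above those of LG255 (interaction log2 -2.98). The condensin subunit SMC4 was at 244, 242, 352 and 370.2 CPM in members and 67.1, 62.5, 24 and 19.6 CPM in the others, so that LG252 was the lower animal among members and the higher among other cells (log2 -1.92). UBE2S, which extends ubiquitin chains for the anaphase-promoting complex, was at 131, 125, 117 and 151 CPM against 38, 44, 7.26 and 10.2 CPM (log2 -2.02). HSPB6 and the HSP70 gene HSPA2 went the other way. HSPA2 was at 12778, 9696, 352 and 479 CPM in members and 10578, 6574, 536 and 592 CPM in the others, above the other cells in LG252 and below them in LG255 (log2 1.11, SE 0.14, adjusted p = 0.00159, edgeR). HSPB6 was above the other cells in members of LG252 and below them in LG255 (log2 1.81, SE 0.20, adjusted p = 0.0003, edgeR). HSPA2 may have near-identical relatives that share reads, which was not tested, so its counts are uncertain. Immediate early genes had a positive interaction log2 in 22 of 26 fitted genes (median 0.65, against 0.10 over all genes). By edgeR 1 was called greater in LG252 and 0 smaller, where 0.169% of all genes were greater. Against other cells of like depth 8 of 25 were greater, where 63 of 10862 genes were. After thinning 0 of 25 were greater, where 12 of 6243 genes were.

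**Figure D5:**
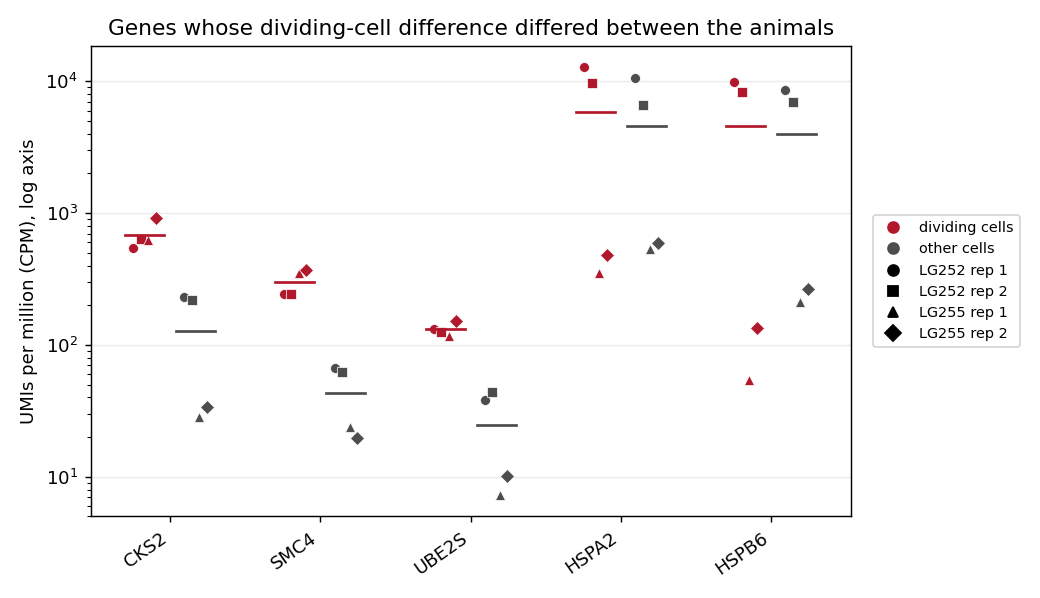
Levels of the 5 named interaction genes in CPM on a log axis, by library, with the mean of the 4 libraries as a bar. For CKS2, SMC4 and UBE2S the dividing sums of the 2 animals lie closer together than the sums of other cells, of which LG255 is the lowest, and for HSPA2 and HSPB6 LG252 lies far above LG255 in both classes.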

How the data were processed

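Counts of UMIs per gene and cell barcode were deposited by the authors as whole numbers without normalisation. They were made with the 10x Genomics single cell 3' v3 kit, per the labels' protocols, and Cell Ranger 7.1.0, per the file headers (the submitters' processing notes name Cell Ranger 2.1.0). The assembly was MPM_Emac_v1.0, per the series' design text. Intron counting, strand settings and the barcode filter are not given in the sources used here, so genes that overlap or have near copies are uncertain. Gene coordinates come from the RefSeq table of that assembly, which matched 23658 of 24025 features.

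The members, gene lists and tests were chosen with earlier results of these data known. Named genes followed a rule: the 12 higher and 12 lower genes with the greatest log2 fold change among those called, with a symbol, 1 direction in every library (between animals, no overlap) and at least 20 CPM on average in the higher class; up to 4 called and 2 uncalled genes per list; and the 5 interaction genes with the smallest p. Other genes named are gate genes or list members given as examples.

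Of 8612 barcodes, 8531 had at least 200 genes, and no limit was set on mitochondrial UMIs. Doublets were scored with Scrublet in scanpy 1.11.5 and kept, since the rule removes none; their removal, at 0.8% per 1000 cells, was an alternative. UMIs were summed per library and class and tested with edgeR 4.0.16 (quasi-likelihood, TMM, filterByExpr, Benjamini-Hochberg at 0.05), with the library as a block for dividing against other cells and for the interaction, and with no block between animals. CPM are UMIs per 1000000 UMIs of the summed cells, without TMM. Standard errors were taken from each log2 fold change and its F statistic. The fits were tested on simulated data. DESeq2 1.42.0, other thresholds, thinning to 2000 UMIs, depth matching and leaving out each library were alternatives. Choosing members by 2 division UMIs in thinned cells was added after seeing the data, as were levels without the richest cell. Precision is limited by 32 to 63 members a library. No sequences were used here.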

Additional observations from a re-analysis of the deposited data

Results flagged for a closer look

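The difference between dividing and other cells differed between the animals for 52 of 11222 genes in the interaction test of edgeR. The 5 named genes were CKS2 (log2 -2.98), SMC4 (-1.92) and UBE2S (-2.02), whose rise in dividing cells was smaller in LG252, and HSPB6 (1.81) and HSPA2 (1.11), which were above the other cells in LG252 and below them in LG255. Depth of members, mitochondrial share and dissociation differ between the same libraries, and their part was not tested.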

How the results depend on the processing

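The share of dividing cells, 3.41 points higher in LG252, lay between 2.29 and 4.49 points higher under 6 other thresholds and filters and with any 1 library left out (2.32 to 4.49). The difference was -0.0686 points in cells thinned to 2000 UMIs, with 10, 10, 9 and 11 members, and -0.443 points with a threshold of 2 there. The libraries of the animals overlapped in both, so these values give no direction. The 1536 calls of dividing against other cells became 481 after thinning, where 4522 genes were tested, and 354 without the library block, with a range of 1051 to 1223 when 1 library was left out. The 1631 calls between animals became 935 with 10 division UMIs required, 222 after thinning, 756 with members chosen at equal depth and 550 with DESeq2, with a range of 1134 to 1528 when 1 library was left out. The replicate numbers name libraries of different animals and do not pair them, and with the replicate block the calls between animals were 1240. The 52 interaction calls became 86 with 3 division UMIs required, 101 against other cells of like depth, 25 after thinning, 23 with DESeq2 and 237 with no filter on low counts. They ranged from 55 to 255 when 1 library was left out, with 255 without LG255 replicate 1 and 220 without LG255 replicate 2, where a lone LG255 library is assumed to vary like the others. The cause of these shifts was not tested. Of 33 named genes called between dividing and other cells, 25 kept their call with DESeq2, 28 of 32 with a value at like depth, 10 of 21 with a value after thinning and 4 without the library block, and none of them turned under any alternative run. Of 24 named genes called between the animals, all with a value kept it under DESeq2 (24), thinning (10) and the replicate block (24). All 5 named interaction genes kept their call when any 1 library was left out, and 4 did under DESeq2. For TBX1, dividing against other cells, the uncalled difference turned to -0.0158 without LG252 replicate 2 (highest 0.18). The number of cells and UMIs limits all values of low genes, and 2 libraries an animal limit every comparison between animals.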

Other observations

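Division outside the LOC129339097-positive cells was also measured. A further 244 barcodes had at least 5 UMIs of the 5 division genes and fewer than 10 UMIs of LOC129339097, with 113, 107, 10 and 14 in the 4 libraries (LG252 replicates 1 and 2, then LG255 replicates 1 and 2). Of these, 103 had at least 3 immune UMIs, 91 of them in LG252 replicate 1. Another 102 had at least 5 UMIs of COL1A1, COL1A2, DCN and LUM without such immune counts, 91 of them in LG252 replicate 2. The remaining 39 had neither, and 139 of the 244 had no UMI of LOC129339097. These barcodes entered no comparison.

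After thinning to 2000 UMIs, dividing cells were 58 of 611 cells with a SOX2 UMI (9.49%, exact binomial interval 7.29 to 12.1) and 145 of 1908 cells without one (7.60%, 6.45 to 8.88). The order was not the same in every library: the shares with and without a SOX2 UMI were 12.1% and 10.3% in LG252 replicate 1, 12.1% and 7.71% in LG252 replicate 2, 8.91% and 7.21% in LG255 replicate 1 and 4.29% and 6.21% in LG255 replicate 2. By UMIs of the dental epithelial list, dividing cells of all libraries were 7.06% of cells with none, 9.14% with 1 and 9.34% with 2 or more, with overlapping intervals (5.76 to 8.56, 7.098 to 11.5 and 6.87 to 12.3). This order was not shared by the libraries either. The shares were 11.1%, 11.0% and 9.23% in LG252 replicate 1 and 6.75%, 11.6% and 9.33% in LG252 replicate 2. In LG255 they rose, at 6.34%, 7.14% and 10.7% in replicate 1 and 4.665%, 6.67% and 8.497% in replicate 2.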
